A study of Mus musculus with 121 samples.

Results

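Opioid and tachykinin signalling in the mouse brain was followed through 10 genes, taken by symbol from a table of raw read counts for 24412 genes. The members were the peptide precursors Penk, Pdyn, Pnoc and Tac1, the opioid receptors Oprm1, Oprd1, Oprk1 and Oprl1, and the tachykinin receptors Tacr1 and Tacr3. All 10 members had at least 1 cpm (a count scaled to the library total) in at least 3 libraries of every fit described here.

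The study asked what happens when the mouse's own Gdnf, which encodes glial cell line-derived neurotrophic factor, is made at a higher level in the cells that normally express it. Bulk mRNA was sequenced from prefrontal cortex (PFC), striatum (STR) and substantia nigra (SN), dissected from brain slices of male mice on a mixed 129Ola/ICR/C57bl6 background. The mice were wild-type (WT), heterozygous (HET) or homozygous (HOM) for a conditional Gdnf allele called cHyper, or cKU in the sample labels, which Cre recombinase switches to higher expression. Cre came from 2 sources, each making a model of its own. In the Nestin-Cre model a transgene active in the central nervous system from mid-gestation carried Cre, and the labels give 2 months of age for all its libraries. The study's text puts the upper age of its STR and SN mice somewhat higher. In the AAV-Cre model an adeno-associated virus carrying Cre was injected into the striatum on each side at 3 to 5 months, and tissue was taken at 5 to 7 months. The WT controls carried Nestin-Cre or received AAV-Cre as well, so every group had Cre. The virus was placed in the striatum only, so PFC and SN of AAV-Cre mice were not themselves injected.

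There were 121 libraries from 43 mice, 21 in the Nestin-Cre model and 22 in the AAV-Cre model. Nestin-Cre PFC had 8 WT, 6 HET and 4 HOM libraries, and Nestin-Cre STR and SN each had 6 WT, 7 HET and 6 HOM. AAV-Cre PFC had 7 WT, 7 HET and 8 HOM libraries, AAV-Cre STR had 7 of each genotype, and AAV-Cre SN had 7 WT, 7 HET and 8 HOM. Libraries of a group came from separate mice, so the p-values measure the spread between mice. HET and HOM were compared with the same WT libraries, and the regions were largely taken from the same mice.

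Total counts per library ran from 11204112 to 26750905 in Nestin-Cre PFC, from 14457419 to 22518785 in Nestin-Cre STR and from 11958680 to 25305502 in Nestin-Cre SN. They ran from 9869584 to 18837153 in AAV-Cre PFC, from 13951371 to 24260013 in AAV-Cre STR and from 11763261 to 22728977 in AAV-Cre SN. At this depth Penk was covered by 631 to 67558 counts per library. Oprm1 had only 2 to 166 counts, so its levels were among the least precise.

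Opioid peptides are cut from the precursors proenkephalin (Penk), prodynorphin (Pdyn) and pronociceptin (Pnoc), and substance P and neurokinin A from the Tac1 precursor. Their receptors are G protein-coupled: the opioid receptors act mainly through inhibitory G proteins, and the tachykinin receptors through Gq. In the striatum, enkephalin marks the indirect pathway projection neurons, which carry the D2 dopamine receptor, and dynorphin and substance P mark the direct pathway neurons, which carry the D1 receptor and project to the substantia nigra.

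Gdnf was read first as a check on the labels. In Nestin-Cre STR it lay at 3.88, 5.98 and 7.21 cpm (lowest, median and highest) in WT, at 4.04, 5.67 and 9.05 cpm in HET and at 5.79, 6.65 and 9.59 cpm in HOM. In AAV-Cre STR the values were 5.45, 6.74 and 7.45 cpm in WT, 6.46, 7.37 and 9.42 cpm in HET and 7.71, 8.67 and 9.98 cpm in HOM, where every HOM library lay above every WT library. The log2 difference of HOM from WT was 0.40 in AAV-Cre STR (SE 0.094, unadjusted p = 0.000344, adjusted p = 0.504 by the edgeR quasi-likelihood test with Benjamini-Hochberg adjustment over all genes) and 0.28 in Nestin-Cre STR (SE 0.19, unadjusted p = 0.162, adjusted p = 0.784). Neither passed the threshold of an adjusted p under 0.1, and the Gdnf count of a single library did not tell its genotype. The study reported higher striatal Gdnf mRNA by qPCR in both models. By its account the switched allele makes an mRNA with a short untranslated region after the coding part. How far this affects counts over the whole gene was not tested. In PFC and SN the group medians lay between 0.133 and 1.19 cpm, too low to check a label.

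A mouse of the Nestin-Cre model had conflicting labels, WT for its PFC library (N_PFC_WT_4575) and HOM for its STR and SN libraries (N_STR_HOM_4575 and N_SN_HOM_4575). Its Gdnf level was 0.36 cpm from 5 counts in PFC, 7.61 cpm in STR and 0.379 cpm in SN, and could not settle the genotype. Each library kept its own label, and results that changed without this mouse are given with both values. In PFC this mouse had 98.4 cpm of Penk and 26.0 cpm of Tac1, both in the lower part of the WT range.

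Tissue markers followed the labelled regions. The summed cpm of 5 cortical excitatory neuron markers in Nestin-Cre WT mice ran from 1833 to 2113 in PFC, from 8.16 to 300.01 in STR (median 84.5) and from 11.5 to 254 in SN (median 13.3). Some STR and SN libraries thus held cortical markers well above the median of their group, in AAV-Cre WT mice up to 65.1 cpm in STR and 256 cpm in SN. In Nestin-Cre WT mice the sum of 8 striatal projection neuron markers was 9359 to 12648 in STR, 762 to 1370 in PFC and 288 to 378 in SN. The sum of 7 midbrain dopamine neuron markers in the same mice was 2940 to 4161 in SN, 14.8 to 55.3 in PFC and 24.5 to 36.8 in STR. It was led by Slc6a3 in SN and by Th in PFC, and En1 was at 0 in some PFC groups. A pair of SN libraries stood apart. The striatal projection neuron sum was 2121.5 cpm in the Nestin-Cre library N_SN_HET_4566, where the next in its group was 465, and 1272.8 cpm in the AAV-Cre library A_SN_WT_3587, where the next was 566. Both libraries were also high in Penk and Pdyn: N_SN_HET_4566 had 389.8 cpm of Penk and 30.9 cpm of Pdyn, and A_SN_WT_3587 had 197 cpm of Penk and 17.4 cpm of Pdyn. SN results are therefore given with and without them where they differ.

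Among the peptide precursors, Penk (Entrez 18619, chr4:4133536-4138815, mm10, minus strand) is made of 4 exon blocks, Pdyn (Entrez 18610, chr2:129686549-129699938, minus strand) of 5, Pnoc (Entrez 18155, chr14:65400673-65425472, minus strand) of 5 and Tac1 (Entrez 21333, chr6:7554885-7562978, plus strand) of 9. In WT mice of the Nestin-Cre model, Penk lay at 2203, 2875 and 3358 cpm in STR, at 93.1, 142 and 198 cpm in PFC and at 61.2, 103 and 115 cpm in SN (lowest, median and highest). In WT mice of the AAV-Cre model it lay at 1328, 1593 and 1933 cpm in STR, 126, 196 and 325 cpm in PFC and 53.2, 69.4 and 197 cpm in SN. Striatal libraries lay far above the others in both models without overlap, and the PFC and SN ranges overlapped, in the AAV-Cre model through A_SN_WT_3587 alone, where the next SN library was at 87.2 cpm. STR exceeded PFC by a log2 difference of 4.29 (SE 0.18, adjusted p = 1.23e-14 by the edgeR quasi-likelihood test) in the Nestin-Cre model and 2.76 (SE 0.26, adjusted p = 4.89e-09) in the AAV-Cre model. SN fell below PFC, with log2 differences of -0.71 (adjusted p = 0.000642) and -1.48 (adjusted p = 1.73e-05). The Nestin-Cre difference was not called when all genotypes entered the fit with genotype as a covariate, where it was -0.16 (adjusted p = 0.374). That fit took in N_SN_HET_4566, the SN library with 389.8 cpm of Penk. The AAV-Cre difference was -1.83 without A_SN_WT_3587.

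Pdyn had its highest level in STR as well and its lowest in SN. Its WT values in the Nestin-Cre model were 112, 124 and 174 cpm in STR, 28.4, 40.5 and 47.3 cpm in PFC and 2.72, 3.61 and 6.12 cpm in SN, with no overlap between regions. AAV-Cre WT mice had 127, 141 and 183 cpm in STR, 37.4, 51.7 and 80.7 cpm in PFC and 1.53, 3.01 and 17.4 cpm in SN. SN lay below STR by a log2 difference of -5.16 in Nestin-Cre mice (adjusted p = 9.91e-16) and of -4.84 in AAV-Cre mice, the latter -5.60 without A_SN_WT_3587. Tac1 was highest in STR too, at 254, 340.1 and 372 cpm in Nestin-Cre WT mice, against 23.0, 37.2 and 44.6 cpm in PFC and 23.0, 43.5 and 90.7 cpm in SN. Here PFC and SN overlapped and the log2 difference of 0.27 was not called (adjusted p = 0.275). In the AAV-Cre model Tac1 lay at 191, 212 and 249.7 cpm in STR, 30.9, 55.6 and 72.5 cpm in PFC and 22.9, 42.7 and 63.9 cpm in SN, and the SN minus PFC difference of -0.39 was called (adjusted p = 0.0648) although the libraries overlapped.

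Pnoc ran in the other direction from the striatal peptides. It lay at 9.81, 15.2 and 25.7 cpm in SN, 5.83, 7.86 and 9.34 cpm in PFC and 1.20, 3.58 and 7.21 cpm in STR of Nestin-Cre WT mice. In AAV-Cre WT mice the values were 9.84, 12.7 and 20.3 cpm in SN, 5.35, 7.58 and 10.4 cpm in PFC and 1.59, 3.79 and 5.30 cpm in STR. SN exceeded STR by 1.93 (adjusted p = 2.75e-05 in the Nestin-Cre model) on the log2 scale in both models, and no WT library of SN fell within the STR range.

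Of the opioid receptors, Oprm1 (mu; Entrez 18390, chr10:6758593-7038209, plus strand) binds endorphin and enkephalin, Oprd1 (delta; Entrez 18386, chr4:132110726-132144486, minus strand) enkephalin, Oprk1 (kappa; Entrez 18387, chr1:5588493-5606133, plus strand) dynorphin, and Oprl1 (Entrez 18389, chr2:181715016-181720985, plus strand) nociceptin. Oprl1 was the most abundant of them in SN and in PFC. In Nestin-Cre WT mice it had 82.8, 92.7 and 109 cpm in SN, against 52.6, 58.2 and 65.7 cpm in PFC and 31.8, 34.7 and 39.6 cpm in STR. The same order without overlap held in AAV-Cre WT mice, with 87.2, 94.0 and 111 cpm in SN, 43.3, 50.5 and 56.5 cpm in PFC and 27.6, 30.8 and 38.7 cpm in STR. The log2 difference of SN from STR was 1.25 in the Nestin-Cre model and 1.53 in the AAV-Cre model, both called. Oprl1 and the nociceptin precursor Pnoc thus shared the order SN, PFC, STR.

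Oprk1 was low in PFC, at 7.65, 12.5 and 16.2 cpm in Nestin-Cre WT mice, and higher in STR at 35.5, 50.9 and 59.7 cpm and in SN at 29.0, 32.8 and 43.4 cpm. STR exceeded PFC by 1.99 on the log2 scale (adjusted p = 4.14e-10) and SN exceeded PFC by 1.37. STR and SN overlapped, with a log2 difference of -0.62 (adjusted p = 0.00193) in Nestin-Cre mice and of -0.12 (adjusted p = 0.479) in AAV-Cre mice, the latter not called. Oprd1 was lowest in SN, at 2.68, 3.70 and 8.63 cpm against 17.8, 19.9 and 26.9 cpm in PFC and 12.9, 15.5 and 28.8 cpm in STR of Nestin-Cre WT mice. PFC and STR overlapped there and did not differ beyond their spread (log2 difference -0.31, adjusted p = 0.195), but in AAV-Cre mice STR was higher at 28.8 to 33.6 cpm against 19.2 to 25.4 cpm in PFC (0.44, adjusted p = 0.0459). Oprm1 stayed between 0.467 and 5.09 cpm in the 3 regions of Nestin-Cre WT mice, with no regional difference called. In AAV-Cre WT mice it had 4.12, 6.41 and 8.11 cpm in SN, above every PFC library (1.07 to 2.98 cpm) and every STR library (2.54 to 3.80 cpm), with a log2 difference from PFC of 1.72 (adjusted p = 4.30e-08). Oprm1 shares 68 exon bases with Ipcef1, a gene on the opposite strand, and its counts are uncertain to that extent.

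The tachykinin receptors split between the regions. Tacr1 (Entrez 21336, chr6:82402475-82560104, plus strand), the receptor that prefers substance P, was highest in STR with 43.2, 50.7 and 59.1 cpm in Nestin-Cre WT mice, against 4.54, 6.68 and 8.70 cpm in PFC and 7.68, 10.5 and 15.7 cpm in SN. Tacr3 (Entrez 21338, chr3:134829007-134934581, plus strand), the receptor that prefers neurokinin B, was highest in SN with 34.1, 40.0 and 45.7 cpm, against 10.6, 11.4 and 11.9 cpm in STR and 0.719, 1.22 and 1.89 cpm in PFC. For Tacr3 no library of any region overlapped another in either model, and SN exceeded PFC by a log2 difference of 4.71 (adjusted p = 2.49e-16) in Nestin-Cre mice and 4.61 (adjusted p = 1.24e-13) in AAV-Cre mice. For Tacr1, SN lay below STR by -2.37 and -1.89, both called, and overlapped with PFC in both models.

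Counted over the 6 regional comparisons, 54 of 60 member tests were called. In the Nestin-Cre model 6 members were higher and 2 lower in STR than in PFC, where 68.1% of all genes tested were called. In SN 5 were higher and 3 lower than in PFC (background 78.8%), and 3 were higher and 6 lower than in STR (background 76.2%). In the AAV-Cre model 8 were higher and 2 lower in STR than in PFC (background 65.6%), 6 and 4 in SN against PFC (background 74.1%), and 4 and 5 in SN against STR (background 75.6%). Most genes differed between regions, so a call by itself set the members little apart. The members' median log2 difference in Nestin-Cre mice was 1.85 for STR minus PFC, 0.38 for SN minus PFC and -1.43 for SN minus STR, where over all genes it was 0.00, -0.03 and 0.01. For AAV-Cre mice the members' medians were 1.29, 0.60 and -1.003, and those of all genes 0.02, 0.01 and 0.03. The regions shared mice, and with the mouse as a block 54 tests were called as well.

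Levels of different genes were compared as cpm per kilobase of exon (cpm per kb, mean ± SD over WT libraries). In Nestin-Cre STR Penk was at 1781 ± 276 cpm per kb, Tac1 at 266 ± 38.7 and Pdyn at 52.0 ± 9.27, each apart from the next by more than its spread. Oprl1 (10.7 ± 0.984 cpm per kb), Oprk1 (10.3 ± 2.03) and Tacr1 (10.1 ± 1.01) followed and did not differ beyond their spread, then Oprd1 (4.37 ± 1.43), Tacr3 (3.02 ± 0.120), Pnoc (1.76 ± 1.19) and Oprm1 (0.513 ± 0.421). In Nestin-Cre PFC Penk led with 89.1 ± 23.2 cpm per kb, followed by Tac1 (28.8 ± 6.14), Oprl1 (17.7 ± 1.41) and Pdyn (15.5 ± 2.71), the latter pair not apart beyond their spread, with Tacr3 (0.346 ± 0.115) and Oprm1 (0.331 ± 0.0861) at the end. In Nestin-Cre SN the order was Penk (62.0 ± 12.0 cpm per kb), Tac1 (39.7 ± 20.1), Oprl1 (28.4 ± 3.00) and Tacr3 (10.6 ± 1.12), with Tac1 not apart from Oprl1 beyond its spread, Oprk1 (7.44 ± 1.34) and Pnoc (7.43 ± 2.73) level and Pdyn near the end at 1.60 ± 0.557. Penk and Tac1 overlapped there too, and N_SN_WT_4394 had 65.0 cpm per kb of Penk and 74.0 cpm per kb of Tac1.

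**Figure D1:**
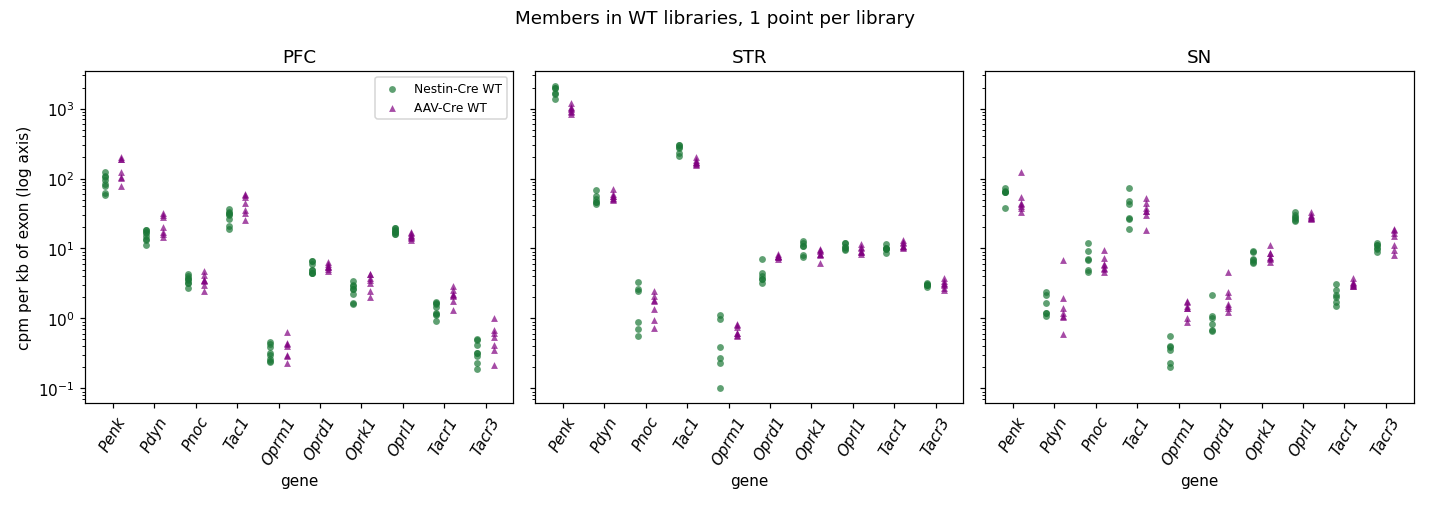
Level of each member in WT libraries, in cpm per kilobase of exon on a log axis, by region and model, with 1 point per library. Penk in STR stands highest at 1781 ± 276 cpm per kb (mean ± SD, n = 6) in the Nestin-Cre model, and Tacr3 (0.346 ± 0.115 cpm per kb, n = 8) and Oprm1 (0.331 ± 0.0861, n = 8) are the lowest members in PFC of that model.

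WT mice of the models were compared within each region. Model, age, Cre source and surgery cannot be told apart in these comparisons. In STR the precursors Tac1 and Penk were lower in the older AAV-Cre mice, with log2 differences (AAV-Cre minus Nestin-Cre) of -0.65 (SE 0.092, adjusted p = 5.98e-05) for Tac1 and -0.89 (SE 0.11, adjusted p = 2.15e-05) for Penk, and no WT library of one model overlapped the other. Pdyn, the other direct pathway precursor, had a log2 difference of 0.09 (adjusted p = 0.477), above the Nestin-Cre mean in 5 of 7 AAV-Cre libraries, and was not called. Oprk1 (-0.32) and Oprl1 (-0.18) were also lower and Oprd1 was higher (0.78, adjusted p = 0.000427), making 5 of 10 members called where 61.9% of all genes were. The sum of 3 direct pathway markers, led by Drd1, was lower in AAV-Cre STR as well, at 312, 327 and 392 cpm against 393, 404 and 462 cpm in Nestin-Cre mice, with 2 of 3 markers called lower. The sum of 3 indirect pathway markers, led by Adora2a, was 599.8, 736 and 808 cpm against 702, 787 and 929 cpm, with 1 of 3 called lower. The striatal projection neuron sum was 9418, 10741 and 11965 cpm against 9359, 11412 and 12648 cpm, with 2 of 8 called higher and 2 lower. No marker of these lists was at 0, and their part in the STR differences was not tested. In PFC Penk was higher in AAV-Cre mice by 0.64 (SE 0.20, adjusted p = 0.0161), Tac1 by 0.60 (adjusted p = 0.0111) and Pdyn by 0.52 (adjusted p = 0.0176), while Pnoc was not called (-0.04, adjusted p = 0.837). There 7 of 10 members were called against 46.9% of all genes. Tacr1 (0.63), Tacr3 (0.60) and Oprk1 (0.39) were higher too and Oprl1 lower (-0.25). Without the mouse with conflicting labels Tacr3 (0.57, adjusted p = 0.136) and Oprk1 (0.31, adjusted p = 0.161) were not called. The striatal projection neuron sum was also higher in AAV-Cre PFC, with 1051, 1395 and 2369 cpm against 762, 946 and 1370 cpm in Nestin-Cre WT mice, with 8 of 8 markers called higher, Gng7 the most abundant and none at 0, and its part in the result was not tested. In SN 3 of 10 members were called, all higher in AAV-Cre mice, against 62.4% of all genes: Oprm1 (1.91, SE 0.24, adjusted p = 1.49e-05, no overlap), Oprd1 (0.98, adjusted p = 0.0227) and Tacr1 (0.52, adjusted p = 0.00753). Without A_SN_WT_3587 Oprd1 was at 0.66 (adjusted p = 0.0490), and Penk was called as well at -0.58 (adjusted p = 0.00545). The striatal projection neuron sum was higher in AAV-Cre SN too, with 419, 481 and 1273 cpm against 288, 317 and 378 cpm, 6 of 8 markers called higher, Adcy5 the most abundant and none at 0, and its part was not tested.

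The effect of the cHyper allele on the members was tested in 12 comparisons, HET and HOM against WT in each region and model. By the edgeR quasi-likelihood test 0 of 120 member tests were called at an adjusted p under 0.1. The edgeR likelihood ratio test called 15, where 2.36% of all gene tests were called, and DESeq2 called 2, where 0.525% were. The likelihood ratio test called Penk, Tac1 and Pdyn in Nestin-Cre PFC HET, Penk and Tac1 in PFC HOM, Penk, Tac1, Pdyn, Pnoc and Oprm1 in STR HET, and Pdyn in STR HOM. Its other calls were Pdyn in Nestin-Cre SN HET and Penk, Tac1 and Pdyn in AAV-Cre SN HET, each in a comparison that held an SN library that stood apart, and this test was not run without those libraries. The group behind the Pnoc call in STR HET held N_STR_HET_4564 at 22.4 cpm of Pnoc, where the nearest library was at 8.78 cpm. DESeq2 called Penk in Nestin-Cre PFC HET and Pdyn in Nestin-Cre STR HET. The background of the quasi-likelihood test was as low as the members' count: 0.250% of all genes were called in Nestin-Cre PFC HOM, 0.0137% in AAV-Cre PFC HOM and 0% in each of the other 10 comparisons. At an unadjusted p under 0.05 the 10 members counted 3 in Nestin-Cre PFC HET (9.72% of all genes), 1 in PFC HOM (10.1%), 3 in STR HET (17.3%), 1 in STR HOM (4.62%), 1 in SN HET (8.99%) and 1 in SN HOM (4.09%). Among AAV-Cre mice they counted 0 in PFC HET (12.3% of all genes), PFC HOM (14.2%), STR HET (1.71%) and STR HOM (4.58%), and 1 each in SN HET (4.69%) and SN HOM (7.49%). Counts this small do not set the members apart from other genes.

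In PFC of Nestin-Cre mice the precursors Penk and Tac1 averaged lower in both cHyper genotypes than in WT, and Pdyn in HET. With all libraries none of these differences was called by the edgeR quasi-likelihood test. The likelihood ratio test called Penk and Tac1 in both genotypes and Pdyn in HET. The study lists Penk and Tac1 as differentially expressed in PFC HOM, so the quasi-likelihood result differs from its calls. Penk lay at 93.1, 142 and 198 cpm in WT and at 63.2, 92.3 and 102 cpm in HET, and the 4 HOM libraries had 101, 77.8, 124 and 75.1 cpm. All 6 HET and all 4 HOM libraries lay below the WT mean of 142 cpm, although the ranges overlapped. The log2 difference was -0.70 in HET (SE 0.16, unadjusted p = 0.000312, adjusted p = 0.135 by the edgeR quasi-likelihood test) and -0.60 in HOM (SE 0.19, unadjusted p = 0.00376, adjusted p = 0.213). Without the mouse with conflicting labels the HET difference was -0.75 and passed the threshold (adjusted p = 0.0564), and so it did without the HOM library N_PFC_HOM_4580 (-0.69, adjusted p = 0.0886). Tac1 had 23.0, 37.2 and 44.6 cpm in WT, 13.1, 25.4 and 30.9 cpm in HET, and 29.3, 22.0, 39.2 and 20.4 cpm in HOM. All 6 HET libraries lay below the WT mean, with a log2 difference of -0.59 (SE 0.18, unadjusted p = 0.00387, adjusted p = 0.277), and 3 of 4 HOM libraries did, with -0.37 (unadjusted p = 0.0893). Pdyn differed less, with 28.4, 40.5 and 47.3 cpm in WT and 28.0, 32.2 and 38.1 cpm in HET (log2 difference -0.29, SE 0.12, unadjusted p = 0.0198, adjusted p = 0.407, lower than the WT mean in 6 of 6), and 40.8, 36.7, 49.3 and 30.7 cpm in HOM. In HOM its mean of 39.4 cpm lay beside the WT mean of 39.5 cpm, with 2 of 4 libraries above it (log2 difference -0.03, unadjusted p = 0.847). All 10 members had a log2 difference below 0 in HET and 7 did in HOM, with medians of -0.21 and -0.30. Of all 14386 genes tested, 7252 were below 0 in HET and 7362 in HOM, with medians of -0.00 in both. The members were measured in the same libraries, and several followed the same marker sum, as given below. Their signs are therefore not separate observations. Apart from Penk, Tac1 and Pdyn in HET and Penk in HOM, no member had an unadjusted p under 0.05 by the edgeR quasi-likelihood test.

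Markers of striatal neurons also had lower values in PFC of both genotypes. There Penk and Tac1 averaged lower in both and Pdyn in HET, without passing the threshold with all libraries. All 8 striatal projection neuron markers were lower in Nestin-Cre HET PFC at an unadjusted p under 0.05, as were 7 of 8 in HOM. Their summed level was 762, 946 and 1370 cpm in WT, 606, 718 and 847 cpm in HET and 779, 661, 899.6 and 569 cpm in the 4 HOM libraries, with Gng7 the most abundant and no marker at 0. The log2 difference of the sum was -0.41 in HET (exact permutation p = 0.00699) and -0.42 in HOM (exact permutation p = 0.0364). The 3 indirect pathway markers Drd2, Adora2a and Gpr6 were lower as well, with a sum of 16.2, 29.8 and 52.7 cpm in WT, 4.45, 10.98 and 23.3 cpm in HET and 16.3, 11.9, 22.0 and 6.12 cpm in HOM, led by Adora2a and with none at 0. That sum differed by -1.33 in HET (exact permutation p = 0.00200) and by -1.14 in HOM (exact permutation p = 0.0101). The sum of 3 direct pathway markers was 33.7, 42.8 and 57.6 cpm in WT, 29.6, 37.3 and 45.5 cpm in HET and 39.8, 30.2, 47.6 and 33.0 cpm in HOM, led by Drd1 and with none at 0. It differed by -0.32 in HET (exact permutation p = 0.0470) and by -0.28 in HOM (exact permutation p = 0.143). At an unadjusted p under 0.05, 2 of these 3 markers were lower in each genotype, and 1 was higher in HET. The part of these neurons in the lower Penk and Tac1 values and in the Pdyn values of HET was not tested, and in bulk tissue fewer cells of a type and less RNA per cell cannot be told apart. Oligodendrocyte markers were lower too, all 5 of 5 in HET, with sums of 3502, 4385 and 5907 cpm in WT and 3080, 3581 and 3633 cpm in HET (exact permutation p = 0.00433). Several immediate-early genes had higher values in PFC of both genotypes, as given under the other observations below. Of 192 marker sum tests 0 passed an adjusted p under 0.1 and 23 had an unadjusted exact permutation p under 0.05.

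Across the 40 PFC libraries of both models, with each group's mean taken off, Penk followed the striatal projection neuron sum with a Pearson r of 0.951 and a Spearman rho of 0.944. The r was 0.943 without the 2 libraries farthest from the median, 0.931 within the 18 Nestin-Cre libraries and 0.961 within the 22 AAV-Cre libraries. Pdyn (r 0.886, rho 0.879), Tac1 (r 0.862, rho 0.866) and Oprk1 (r 0.742, rho 0.766) followed it as well. Oprl1 (r -0.005) and Oprm1 (r -0.067) did not. In STR, where these neurons are the main cell type, the r with the same sum over 40 libraries was 0.371 for Penk, 0.338 for Tac1 and -0.168 for Pdyn, and Penk and Tac1 went with each other at an r of 0.893 (rho 0.884). The points of each correlation share their library, dissection and depth, and the values are a description.

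**Figure D2:**
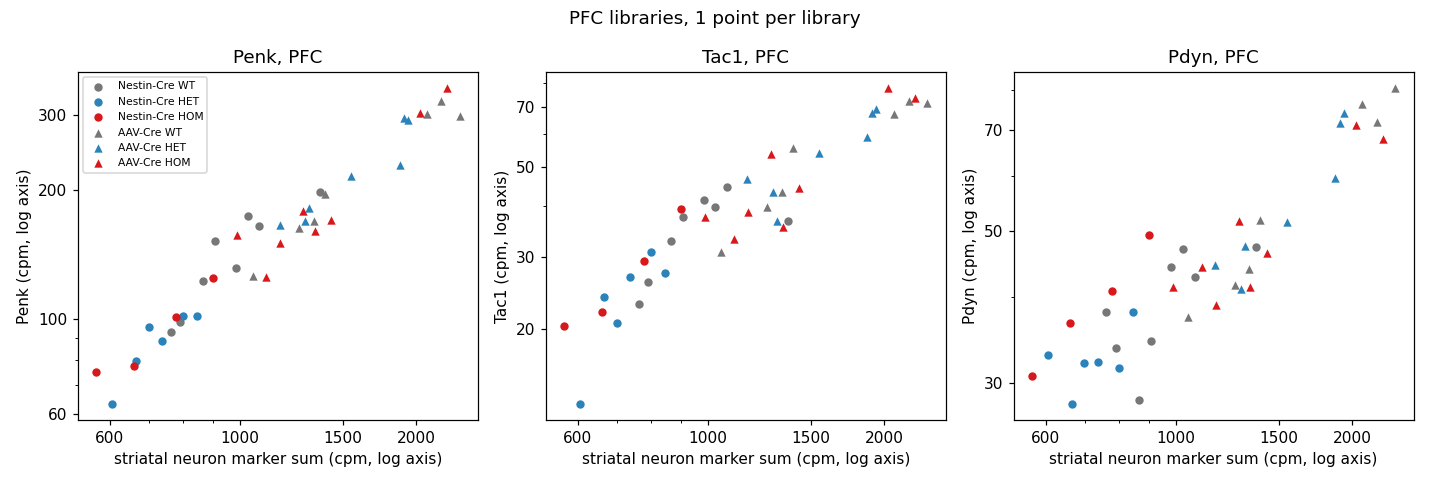
Penk, Tac1 and Pdyn in each PFC library (cpm, log axis) against the summed cpm of 8 striatal projection neuron markers (log axis), coloured by genotype, with circles for Nestin-Cre and triangles for AAV-Cre. Libraries with a higher marker sum had more of each peptide precursor, with r of 0.951 for Penk, 0.862 for Tac1 and 0.886 for Pdyn after group means were taken off (n = 40).

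In STR of Nestin-Cre mice Pdyn averaged higher in both cHyper genotypes than in WT, without passing the threshold. It lay at 112, 124 and 174 cpm in WT, at 147, 171 and 220.0 cpm in HET and at 146, 177 and 232 cpm in HOM. All 7 HET and all 6 HOM libraries were above the WT mean of 132 cpm, and the ranges overlapped. The log2 difference was 0.40 in HET (SE 0.12, unadjusted p = 0.00295, adjusted p = 0.175 by the edgeR quasi-likelihood test) and 0.43 in HOM (SE 0.12, unadjusted p = 0.00191, adjusted p = 0.784). The HOM value was 0.42 without the mouse with conflicting labels. Penk had 2203, 2875 and 3358 cpm in WT and 1652, 2072 and 2896 cpm in HET, with 6 of 7 HET libraries below the WT mean (-0.44, unadjusted p = 0.0127, adjusted p = 0.212). Tac1 had 254, 340.1 and 372 cpm in WT and 189, 219 and 378 cpm in HET, again with 6 of 7 below the WT mean (-0.46, unadjusted p = 0.0136, adjusted p = 0.216). In HOM mice Penk ran from 1733 to 3206 cpm and Tac1 from 191 to 333 cpm. The striatal projection neuron sum was 9359, 11412 and 12648 cpm in WT and 5935, 8047 and 11605 cpm in HET (log2 difference -0.40, exact permutation p = 0.0262), with 8 of 8 markers lower, 5 of them at an unadjusted p under 0.05, Ppp1r1b the most abundant and none at 0. The sum of direct pathway markers ran from 293 to 460 cpm in HET against 393 to 462 cpm in WT. That of indirect pathway markers ran from 452 to 881 cpm in HET against 702 to 929 cpm in WT. The part of these neurons in the Penk and Tac1 values was not tested. In HOM the striatal projection neuron sum ran from 8370 to 11747 cpm. Pdyn averaged higher in HET, where this sum averaged lower, and the part of these neurons in the Pdyn values was not tested either. Several immediate-early genes had higher values in STR HOM, as given under the other observations below.

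In STR of AAV-Cre mice, where Cre was delivered, no member had an unadjusted p under 0.05. Penk lay at 1328, 1593 and 1933 cpm in WT, 1465, 1658 and 1815 cpm in HET and 1534, 1773 and 1937 cpm in HOM. Pdyn lay at 127, 141 and 183 cpm in WT, 129.9, 157 and 181 cpm in HET and 112, 127 and 186 cpm in HOM. The genotypes overlapped for both, with log2 differences in HOM of 0.15 for Penk (unadjusted p = 0.0579 by the edgeR quasi-likelihood test), -0.01 for Pdyn and 0.10 for Tac1. In AAV-Cre PFC Penk had 126, 196 and 325 cpm in WT, 166, 217 and 296 cpm in HET and 126, 166 and 348 cpm in HOM, and the groups overlapped there as well.

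In SN, 3 of the 4 member values with an unadjusted p under 0.05 belonged to the receptors Oprk1 and Tacr1. Oprk1 lay at 29.0, 32.8 and 43.4 cpm in Nestin-Cre WT and 22.1, 26.3 and 36.3 cpm in HOM, below the WT mean in 5 of 6 (log2 difference -0.34, unadjusted p = 0.0358, adjusted p = 0.892 by the edgeR quasi-likelihood test). Without the mouse with conflicting labels it was -0.33 (unadjusted p = 0.0565). In the AAV-Cre model it lay at 30.1, 35.5 and 52.3 cpm in WT and 29.4, 30.9 and 44.2 cpm in HOM, below the WT mean in 7 of 8 (-0.24, unadjusted p = 0.0454, adjusted p = 0.657). Across the 41 SN libraries, with group means taken off, Oprk1 followed the midbrain dopamine neuron sum (r 0.737, rho 0.738), again as a description over values of the same libraries. That sum was 2940.4, 3020.5 and 4161 cpm in Nestin-Cre WT and 1794, 2836 and 4141 cpm in HOM, where 3 of 6 libraries lay below every WT library (log2 difference -0.25, exact permutation p = 0.281). In HOM 6 of its 7 markers had lower values, 0 of them at an unadjusted p under 0.05, with Slc6a3 the most abundant and none at 0. The AAV-Cre sums were 2342, 3338 and 4864 cpm in WT and 2710.2, 3621 and 4296 cpm in HOM (log2 difference 0.00, exact permutation p = 0.992). The part of these neurons in the Oprk1 values was not tested. Tacr1 had 7.68, 10.5 and 15.7 cpm in Nestin-Cre WT and 11.5, 13.8 and 21.1 cpm in HET, above the WT mean in 7 of 7 (0.39, unadjusted p = 0.0478, adjusted p = 0.518). The highest of these was N_SN_HET_4566, without which the difference was 0.27 (unadjusted p = 0.136), and it was 0.37 without the mouse with conflicting labels (unadjusted p = 0.0573). Without N_SN_HET_4566 Tacr3 had the unadjusted p under 0.05 in its place, with 0.41 (unadjusted p = 0.0288, adjusted p = 0.494). Pdyn in AAV-Cre SN HET was at 1.96, 2.57 and 3.59 cpm against 1.53, 3.01 and 17.4 cpm in WT (-0.96, SE 0.37, unadjusted p = 0.0175, adjusted p = 0.946, below the WT mean in 7 of 7). Without A_SN_WT_3587 that difference was -0.22 (unadjusted p = 0.297). In Nestin-Cre SN HET the Pdyn difference of 0.90 turned to -0.11 without N_SN_HET_4566.

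**Figure D3:**
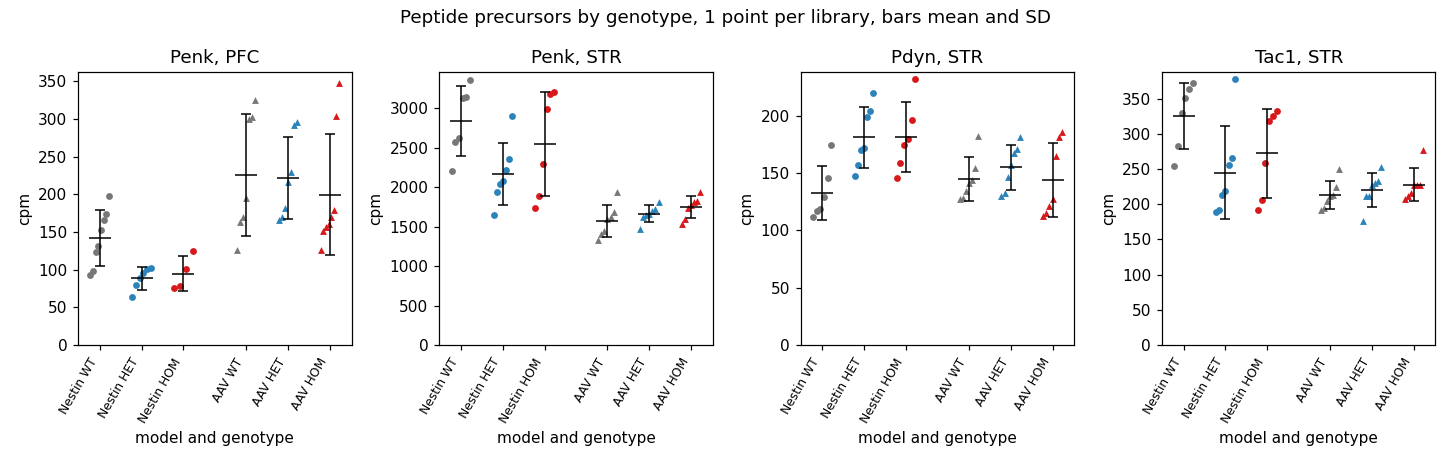
Penk in PFC and Penk, Pdyn and Tac1 in STR (cpm) by model and genotype, with 1 point per library and bars for the mean and SD. Within each model the genotypes overlapped in every panel, and the Nestin-Cre PFC HET libraries of Penk lay between 63.2 and 102 cpm against 93.1 to 198 cpm in WT.

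Whether the allele's effect differed between regions was tested in 12 further contrasts, each within a model. By the edgeR quasi-likelihood test 0 members were called, 14 of 120 member values had an unadjusted p under 0.05 (6.02% of all gene tests), and the likelihood ratio test called 18 (1.45% of all gene tests). Without N_SN_HET_4566 and A_SN_WT_3587, a choice made after seeing the data, 10 member values had an unadjusted p under 0.05, 0 were called, and the calls over all genes went from 46 to 1. With all libraries, 0% of genes were called in STR against PFC, 0.0130% in SN against PFC and 0.0649% in SN against STR for Nestin-Cre HET, and 0% in each for Nestin-Cre HOM. For AAV-Cre HET these were 0%, 0.0194% and 0.00648%, and for AAV-Cre HOM 0%, 0.188% and 0.00648%. In Nestin-Cre HET the Penk effect in SN exceeded that in PFC by 1.11 on the log2 scale (unadjusted p = 0.00282, adjusted p = 0.747) and the Pdyn effect by 1.23 (unadjusted p = 0.00746). Without N_SN_HET_4566 these were 0.54 for Penk (unadjusted p = 0.0375, adjusted p = 0.839) and 0.20 for Pdyn (unadjusted p = 0.430). The Pdyn difference thus rested largely on that library, and the Penk difference in part. The Pdyn effect in STR exceeded that in PFC by 0.70 (unadjusted p = 0.0856), and by 0.70 as well without N_SN_HET_4566 in the shared fit (unadjusted p = 0.00200, adjusted p = 0.586). For Oprk1 in Nestin-Cre HOM the SN effect was below the STR effect by -0.62 (unadjusted p = 0.00784).

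Between the models, 0 members differed in their genotype effect by the edgeR quasi-likelihood test, 10 of 60 member values had an unadjusted p under 0.05 (11.8% of all gene tests), and the likelihood ratio test called 10 (3.48% of all gene tests). Without the SN libraries that stood apart 8 values had an unadjusted p under 0.05. Of all genes, 0.678% were called in PFC for HET, 3.54% in PFC for HOM, 0.00673% in STR for HET, 0.0202% in STR for HOM, and 0% in SN for each. The Penk effect in PFC HET was higher in AAV-Cre than in Nestin-Cre mice by 0.68 (SE 0.30, unadjusted p = 0.0270, adjusted p = 0.273) and in STR HET by 0.53 (SE 0.18, unadjusted p = 0.00497, adjusted p = 0.206). The Tac1 effect in STR HET was higher by 0.52 (unadjusted p = 0.00823, adjusted p = 0.220). The Pdyn effect in STR HOM was lower in AAV-Cre mice by -0.45 (unadjusted p = 0.0144, adjusted p = 0.690). The lower Penk and higher Pdyn values of the Nestin-Cre mice were therefore not shown to be particular to that model.

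The wider pathway was read from 36 genes: 5 other ligands and receptors, 7 precursor processing genes, 7 peptide breakdown genes and 17 receptor signalling genes. By the edgeR quasi-likelihood test 0 of them were called in any of the 12 genotype comparisons. At an unadjusted p under 0.05, 1 was higher and 5 lower of 34 tested in Nestin-Cre STR HET (17.3% of all genes in either direction). In Nestin-Cre PFC, 3 of 33 were higher and 2 lower in HOM (10.1% of all genes) and 0 higher and 2 lower in HET (9.72%). In AAV-Cre PFC, 6 of 34 were higher and 3 lower in HET (12.3% of all genes) and 5 higher and 2 lower in HOM (14.2%). Each of the other 7 comparisons had 0 to 4 in both directions together. The genes named next were chosen after their values were seen. Scg5, which encodes the chaperone 7B2 of the convertase PC2, averaged 494 cpm in Nestin-Cre STR WT and 264 cpm in HET (log2 difference -0.96, SE 0.26, unadjusted p = 0.00135, adjusted p = 0.175). Mme, which encodes neprilysin, a peptidase that cuts enkephalin and substance P, averaged 104 cpm in WT and 63.2 cpm in HET there (-0.76, unadjusted p = 0.00309, adjusted p = 0.175). Ece2, another peptide breakdown gene, averaged higher in HET there, at 38.9 cpm in WT and 52.5 cpm in HET (0.38, unadjusted p = 0.0034, adjusted p = 0.175 by the edgeR quasi-likelihood test). Between regions of Nestin-Cre WT mice, 8 of 34 pathway genes were called higher and 18 lower in STR than in PFC (background 68.1%), and 15 were higher and 12 lower in SN than in STR (background 76.2%), a share like that of all genes. Mme was higher in STR than in PFC by 2.95, and Kcnj6, which encodes a potassium channel opened through opioid receptors, was lower by -4.34.

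The genes most like each member were ranked by Pearson r of mean log2 cpm over the 18 groups. They were Rarb for Penk (0.998), Akap5 for Pdyn (0.996), Fam149a for Pnoc (0.976) and Ido1 for Tac1 (0.992). Among the receptors they were Zcchc3 for Oprm1 (0.917), Bahd1 for Oprd1 (0.988), Zfp503 for Oprk1 (0.985), Cntnap4 for Oprl1 (0.995), Tgfa for Tacr1 (0.993) and Sall2 for Tacr3 (0.993). Within a region, over libraries with group means taken off, Penk in PFC was most like Gng7 (0.936) and Rarb (0.934), and Penk in STR most like Arpc2 (0.921). Pdyn in PFC was most like Ppp1r1b (0.886), Pnoc in PFC most like Sst (0.727) and Oprk1 in SN most like Slc18a2 (0.817). Groups share mice and libraries share their depth, so these values describe likeness only.

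Promoter sequences are shown for Tac1 and Pdyn, which are both made by direct pathway neurons and whose log2 differences in Nestin-Cre STR HET had opposite signs without passing the threshold, and for Tacr3, whose levels never overlapped between regions in WT mice. The RefSeq table for build GRCm38.p6 held 12 entries for 7 of the 10 members, each from 250 bases before to 50 bases after a gene start, and had no entry for Penk, Pnoc and Oprk1. The motif CGTCA, the core of the cyclic AMP response element, was searched on both strands (TGACG on the other strand) and is held by 20.81% of all promoters in the table, 6837 of 32851. It was found in 3 entries of 3 members: at bases 54 and 208 of the Tac1 window, at base 25 of the Tacr1 window and at base 193 of the Tacr3 window. The Pdyn, Oprm1, Oprd1 and Oprl1 windows had no match. Below are Tac1 (chr6:7554811-7555110, plus strand), Pdyn (chr2:129699889-129700188, minus strand) and Tacr3 (chr3:134828757-134829056, plus strand), each 5′ to 3′ on the gene's strand with the motif in capitals, as a description of the letters alone.
Tac1: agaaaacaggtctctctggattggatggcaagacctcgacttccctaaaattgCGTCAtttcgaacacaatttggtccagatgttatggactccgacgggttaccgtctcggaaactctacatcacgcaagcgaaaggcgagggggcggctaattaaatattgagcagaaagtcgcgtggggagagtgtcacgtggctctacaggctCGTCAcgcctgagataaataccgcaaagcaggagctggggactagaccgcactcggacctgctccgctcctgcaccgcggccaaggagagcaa
Pdyn: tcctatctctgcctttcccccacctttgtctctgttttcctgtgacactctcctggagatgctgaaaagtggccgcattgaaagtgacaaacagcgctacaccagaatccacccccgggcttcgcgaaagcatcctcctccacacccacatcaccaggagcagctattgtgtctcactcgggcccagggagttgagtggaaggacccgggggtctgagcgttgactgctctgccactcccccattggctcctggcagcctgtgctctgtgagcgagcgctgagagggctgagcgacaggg
Tacr3: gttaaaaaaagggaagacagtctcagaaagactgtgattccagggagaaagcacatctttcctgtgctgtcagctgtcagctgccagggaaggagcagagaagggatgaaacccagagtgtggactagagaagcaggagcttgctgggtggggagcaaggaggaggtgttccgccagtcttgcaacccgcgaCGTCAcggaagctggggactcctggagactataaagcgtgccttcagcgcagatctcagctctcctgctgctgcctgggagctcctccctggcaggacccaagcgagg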

How the data were processed

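Polyadenylated RNA of dissected tissue was made into stranded mRNA libraries (TruSeq) by the study. The raw counts per gene were deposited by the authors as 1 table, with gene length in bases as another deposited column. Per the submitters' processing notes, bcl2fastq 2.20.0.422, STAR 2.5.2b, featureCounts 1.5.1 and the mm10 genome were used. Counting by strand is not given in the sources used here. All sample columns matched their labels by name and 0 per-sample columns were left unused.

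Counts were tested in R 4.3.3 with edgeR 4.0.16 (TMM scaling, trended dispersion, quasi-likelihood F test, two-sided), which builds on limma 3.58.1. A gene was kept if 3 or more libraries of the fit had 1 cpm or more of it, and p-values were adjusted over all genes of the fit by the Benjamini-Hochberg method, with a threshold of 0.1. Genotypes were compared in a separate fit for every region of a model, and regions and models in fits of the WT libraries. Marker sums were compared by exact permutation tests on log2 sums, two-sided. Log2 cpm for correlations used a prior count of 2, and likeness was limited to genes with a mean of at least 1 cpm. The tests were checked on simulated data with a single dispersion for all genes, where DESeq2 called more unchanged genes than its threshold names. Such data cannot show how the likelihood ratio test behaves when genes differ in spread. Counts of DESeq2 and of the likelihood ratio test are given as alternatives only.

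Alternatives were the likelihood ratio test, DESeq2 1.42.0, DESeq2 size factors, no filter, other sets of libraries in the fit, a threshold of 0.05, the mouse as a block, and fits without the mouse with conflicting labels or without single HOM mice. Fits without N_SN_HET_4566 and A_SN_WT_3587 were added after seeing the data. Members and lists were chosen with earlier results of these data known. Named were all members, list genes called in a genotype comparison, and the genes with the highest r to each member. Scg5, Mme, Ece2, Kcnj6, Grk3 and Tac2 fall outside this rule, since 0 list genes were called by genotype, and were picked with their values in view. Not every gene of the likeness ranking is reported here.

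TMM factors ran from 0.952 to 1.05. No pair of replicates was as alike as repeat counts of a single library (lowest chi-square per degree of freedom 4.49 over 354 pairs). The same mouse number marks the same animal in the labels. Deviations from the group means had a median correlation between regions of the same mouse of 0.348 for PFC and STR, 0.203 for PFC and SN and 0.270 for STR and SN in the Nestin-Cre model, and of 0.317, 0.223 and 0.213 in the AAV-Cre model, against values near -0.012 to -0.018 for different mice. With separate animals and total counts of at least 9869584, counting error weighs most on members with few counts, such as Oprm1, Tacr3 in PFC, Pnoc in STR and Pdyn in SN.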

Additional observations from a re-analysis of the deposited data

Results flagged for a closer look

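In 180 groups of member levels and 54 groups of marker sums, 21 and 6 values lay far from the rest of their group, some of them from the same library, measured by the gap to the nearest library over the range of the group. Chance gives this in about 1 in 20 groups. Libraries are named by model (N for Nestin-Cre, A for AAV-Cre), region, genotype and mouse number.

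In SN the striatal projection neuron sum was 2121.5 cpm in N_SN_HET_4566 (nearest 465) and 1272.8 cpm in A_SN_WT_3587 (nearest 566). N_SN_HET_4566 also had 389.8 cpm of Penk (nearest 103), 30.9 cpm of Pdyn (nearest 4.95) and 21.1 cpm of Tacr1 (nearest 14.97). A_SN_WT_3587 also had 197 cpm of Penk (nearest 87.2), 17.4 cpm of Pdyn (nearest 4.97) and 18.6 cpm of Oprd1 (nearest 9.64).

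Other SN libraries far from their group were N_SN_WT_4329 with 61.2 cpm of Penk (nearest 102) and 8.63 cpm of Oprd1 (nearest 4.36), N_SN_HET_4628 with 14.9 cpm of Oprd1 (nearest 6.31) and N_SN_HOM_4580 with 103 cpm of Tac1 (nearest 52.4). In AAV-Cre SN, A_SN_HOM_3607 had 4.32 cpm of Pdyn (nearest 3.27) and 44.2 cpm of Oprk1 (nearest 31.9), and A_SN_HET_3688 had 48.7 cpm of Tac1 (nearest 33.0).

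In STR, N_STR_HET_4564 had 22.4 cpm of Pnoc (nearest 8.78) and 67.9 cpm of Oprl1 (nearest 45.4), N_STR_HET_4579 had 378 cpm of Tac1 (nearest 266) and N_STR_WT_4609 had 28.8 cpm of Oprd1 (nearest 17.9). A_STR_HOM_3749 had 277 cpm of Tac1 (nearest 228) and A_STR_HET_3586 had 67.2 cpm of Tacr1 (nearest 59.0). The cortical excitatory neuron sum was 502 cpm in N_STR_HOM_4569 (nearest 132) and 160.4 cpm in A_STR_HOM_3687 (nearest 71.7).

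In PFC, N_PFC_HOM_4580 had 9.81 cpm of Tacr1 (nearest 4.48) and a midbrain dopamine neuron sum of 46.7 cpm (nearest 16.0). A_PFC_HOM_3690 had 66.4 cpm of Oprl1 (nearest 53.9), and the midbrain dopamine neuron sum of A_PFC_WT_3576 was 55.7 cpm (nearest 28.8).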

How the results depend on the processing

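The 0 member tests called by genotype with the edgeR quasi-likelihood test became 15 with the likelihood ratio test and 2 with DESeq2 (Penk in Nestin-Cre PFC HET and Pdyn in Nestin-Cre STR HET), and 1 without the mouse with conflicting labels. Leaving out each of 4 Nestin-Cre PFC HOM mice in turn gave 0 to 1. For all genes the 38 calls became 4145 with the likelihood ratio test, 1090 with DESeq2, 57 with DESeq2 size factors, 130 without the mouse with conflicting labels, 1777 with all regions in a single fit, 12 at a threshold of 0.05 and 3 to 178 leaving out a HOM mouse. The 0 members in the region interaction became 18 and the 0 in the model interaction 10 with the likelihood ratio test, and all genes went from 46 to 2689 and from 627 to 3116.

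With the mouse as a block, which uses the pairing of regions, 54 regional member tests were called as without it and 0 in the region interaction, where the calls over all genes went from 46 to 830. Over the other alternatives run, the regional count was 53 to 58 and the model count 12 to 16. Marker sums gave 0 with and without the mouse with conflicting labels. Without the SN libraries that stood apart, an alternative chosen after seeing the data, 4 differences that did not pass the threshold changed sign. Pdyn in Nestin-Cre SN HET turned from 0.90 to -0.11 (adjusted p = 0.865), and the AAV-Cre HOM effect on Pdyn in SN from -0.56 to 0.20 against PFC and from -0.72 to 0.040 against STR. The AAV-Cre minus Nestin-Cre difference in the SN HET effect on Penk turned from -0.76 to 0.13. The region interaction calls over all genes went from 46 to 1. Counted over all alternatives together, 683 of the other single member values kept their direction and side of the threshold, 59 passed it in addition and 6 no longer passed it. The cause was not tested. Depth limits members with few counts, such as Oprm1 with 2 to 166 per library.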

Other observations

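Other marker lists stood beside the members with values not given above. In Nestin-Cre PFC, 7 of 10 immediate-early genes in HET and 6 of 10 in HOM were higher at an unadjusted p under 0.05, where 9.72% and 10.1% of all genes passed in either direction, with median log2 differences of 0.78 and 0.85. In Nestin-Cre STR HOM 5 of 10 were (4.62% of all genes, median 0.61). By the edgeR quasi-likelihood test 0 of them were called. In the AAV-Cre model the medians were 0.02 in PFC HET and -0.26 in PFC HOM.

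Pnoc in PFC followed the sum of interneuron markers (r 0.675, rho 0.631 over 40 libraries with group means taken off). In STR, Pnoc (r -0.632) and Oprl1 (r -0.588) ran against the striatal projection neuron sum and Tacr1 followed it (r 0.731), over 40 libraries. In SN, Oprd1 followed the cortical excitatory neuron sum (r 0.701) and Tac1 the sum of hypothalamic and mammillary markers (r 0.673), over 41 libraries. Pdyn in SN followed the striatal projection neuron sum with an r of 0.826, which was 0.472 without the 2 farthest libraries, so the relation rested largely on those. Libraries share depth and dissection, and these values are descriptions.

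Grk3, a receptor kinase, averaged higher in Nestin-Cre PFC HOM (log2 difference 0.23, unadjusted p = 0.00132, adjusted p = 0.163 by the edgeR quasi-likelihood test), and Tac2, the neurokinin B precursor, had 0.47 there (unadjusted p = 0.0033). In AAV-Cre PFC HET Grk3 averaged lower, at 155 cpm against 171 cpm in WT (-0.12, unadjusted p = 0.0472, adjusted p = 0.399 by the same test). Scg5 was also lower on average in Nestin-Cre PFC HET (-0.83) and SN HET (-0.64), but was at 258 and 255 cpm in AAV-Cre PFC WT and HET. These genes were chosen after their values were seen.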
